A study of Mus musculus with 6 samples.

Results

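The genes of the mitochondrial genome were described in type II alveolar epithelial (AT2) cells of young and old mice. Their members were all genes of the count table whose symbol begins with mt-, which were 34 of 24224 genes. Of these, 13 encode proteins, 2 encode the ribosomal RNAs of the mitochondrion and 19 encode transfer RNAs. Another 3 tRNA genes of the mitochondrial annotation, mt-Tf, mt-Ts1 and mt-Td, were not analysed here. The cells came from the lungs of wild-type mice, labelled C57/6J and named C57BL/6J in the methods of the study, that had aged without intervention, at 3 months (3 m) or 24 months (24 m) of age. They had been sorted as CD45- CD31- CD326+ MHCII+, meaning that leukocytes and endothelial cells were gated out and MHCII-bearing epithelial cells were kept. Each age had 3 biological replicates, and each replicate was a pool of cells from several mice, so the spread between replicates is a spread between pools. The comparison asked how the transcripts of AT2 cells differ between young and old lungs.

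The mitochondrial genome is a small circle that encodes core subunits of the respiratory chain, together with the rRNAs and tRNAs needed to translate them. Both of its strands are transcribed into long precursors, from which the separate RNAs are cut at the tRNAs that lie between them. The other subunits of the chain, and every protein that copies, transcribes or processes mitochondrial nucleic acid, are encoded in the nucleus. Alveolar type II cells make and secrete surfactant and are rich in mitochondria.

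Libraries held between 28827930 and 32394985 counted fragments. The AT2 label was checked against 11 markers, of which all were detected, and their summed level was between 138038 and 230576 CPM (counts scaled to a common library size by the trimmed mean of M-values, TMM). The lowest sum was that of 3 m replicate 2, and each other library was at 157051 CPM or more. The sum of 13 leukocyte markers other than Lyz2, which AT2 cells also express, was 3.74 to 9.67 CPM at 3 m and 20.6 to 108 CPM at 24 m, with 7 of the 13 at 0 in all libraries of 3 m mice. Endothelial markers summed to 1.23 to 2.70 CPM at 3 m and 3.80 to 19.0 CPM at 24 m, and airway secretory and ciliated markers to 303 to 766 and 547 to 1226 CPM. For 24 immediate early or heat shock genes, known to respond to stress and cell handling, the sum was 3600 to 9970.1 CPM at 3 m, lowest in replicate 2, and 11837 to 22037 CPM at 24 m. Of these 24 genes, 15 were higher in all 24 m libraries than in all 3 m libraries, against 9.74% of all genes tested. The part of these genes in the values below was not tested. One library stood apart. The second replicate at 3 m had a count for 13430 genes, against 16356 to 21836 in the other 5 libraries. It also had no count for 693 genes that held at least 20 counts in each other library, and the same number for the other libraries was 0 to 15. Its sum of 8 markers of type I alveolar (AT1) cells was 985 CPM, against 1585 to 1910 CPM in the other 5 libraries. Its sum of 5 erythroid markers was 34.0 CPM, against 0 to 26.6 CPM in the other 5. Log2 differences between the ages are therefore given with and without this library.

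Many mitochondrial genes have copies in the nuclear genome, left there by ancient transfers of mitochondrial DNA, and a short read from a recent copy can be impossible to place. The sequences below show how close such a copy can be, and the capitals mark the bases that differ within each pair. They are the first 80 bases of mt-Atp6 (a subunit of ATP synthase), mt-Nd3 and mt-Nd6 (both subunits of complex I), each followed by its closest annotated nuclear gene, read 5′ to 3′ from the GENCODE vM21 transcripts of the GRCm38 build.
mt-Atp6: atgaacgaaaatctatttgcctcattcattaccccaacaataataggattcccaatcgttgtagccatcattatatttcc
Gm10925: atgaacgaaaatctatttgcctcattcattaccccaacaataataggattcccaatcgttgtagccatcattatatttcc
mt-Nd3: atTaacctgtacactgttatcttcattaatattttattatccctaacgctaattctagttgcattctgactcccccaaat
Gm28438: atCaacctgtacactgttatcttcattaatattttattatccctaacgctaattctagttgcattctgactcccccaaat
mt-Nd6: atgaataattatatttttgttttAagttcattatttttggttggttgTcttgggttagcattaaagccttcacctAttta
Gm11408: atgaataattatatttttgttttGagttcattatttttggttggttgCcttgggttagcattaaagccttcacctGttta

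Along these stretches mt-Atp6 and Gm10925 were identical, mt-Nd3 and Gm28438 differed by T3C, and mt-Nd6 and Gm11408 differed by A24G, T48C and A76G. Positions count from 1 at the 5′ end of the mitochondrial gene, whose base is given first. The copies at 99% identity or more were not scattered. A run of 7 neighbouring nuclear genes on chromosome 1, with no other annotated gene between them, matched 7 mitochondrial genes at 99% identity or more, in the reverse of the order in which these lie along the mitochondrial genome. Genes were compared one by one through their transcripts, and the tRNA genes that lie among these members had no match of that kind. Only annotated transcripts were searched, so a nuclear copy of a tRNA gene outside them would not have been found. In order the 7 nuclear genes were Gm28439, Gm10222, Gm28438, Gm28437, Gm10925, Gm28661 and Gm29216, which matched mt-Nd4, mt-Nd4l, mt-Nd3, mt-Co3, mt-Atp6, mt-Co2 and mt-Co1. The match covered nearly the whole of 5 members, from 98.99% of mt-Nd4l to 99.87% of mt-Co3. It covered 63.57% of mt-Nd4 and 31.26% of mt-Co1. Of mt-Atp8, the other mitochondrial subunit of ATP synthase, 21.08% matched, which is the stretch of 43 bases where mt-Atp8 and mt-Atp6 overlap. No alignment of a nuclear gene with mt-Nd1, mt-Nd2, mt-Nd5, mt-Nd6, mt-Cytb or either rRNA reached that identity along its whole length. Shorter stretches inside these alignments were identical, the longest being 129 bases of mt-Nd2 in Gm13339 and 95 bases of mt-Nd5 in Gm11407.

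The levels of the protein-coding members followed this division. Levels were compared between genes as deposited FPKM, which scale the fragments of a gene by its length and by the total of the library. The 5 members with a near-identical nuclear gene along at least 90% of their length had mean FPKM between 27.4 (mt-Nd4l) and 108 (mt-Co2), and the highest value of any of them in any library was 336. The lowest value of the 7 protein-coding members other than these and mt-Atp8, in any library, was 1093. The 2 sets did not overlap, although every one of these mRNAs except that of mt-Nd6 is cut from transcripts of the same strand. The rRNAs, for which no such copy was found either, had means between those of the sets but overlapped both in range. mt-Rnr1 at 224 FPKM in 3 m replicate 2 was below mt-Atp6 and mt-Co2 in that library and above both in the other 5, and mt-Rnr2 reached 1146 FPKM, above the lowest values of mt-Nd6 and mt-Nd5. mt-Co1, which encodes the catalytic subunit of cytochrome c oxidase (complex IV), was the most abundant by FPKM with a mean of 7179, and mt-Co2 and mt-Co3, which encode the other mitochondrial subunits of the same enzyme, had means of 108 and 51.5. mt-Co1 ranked between 6 and 9 among all genes by count in the 6 libraries.

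**Figure D1:**
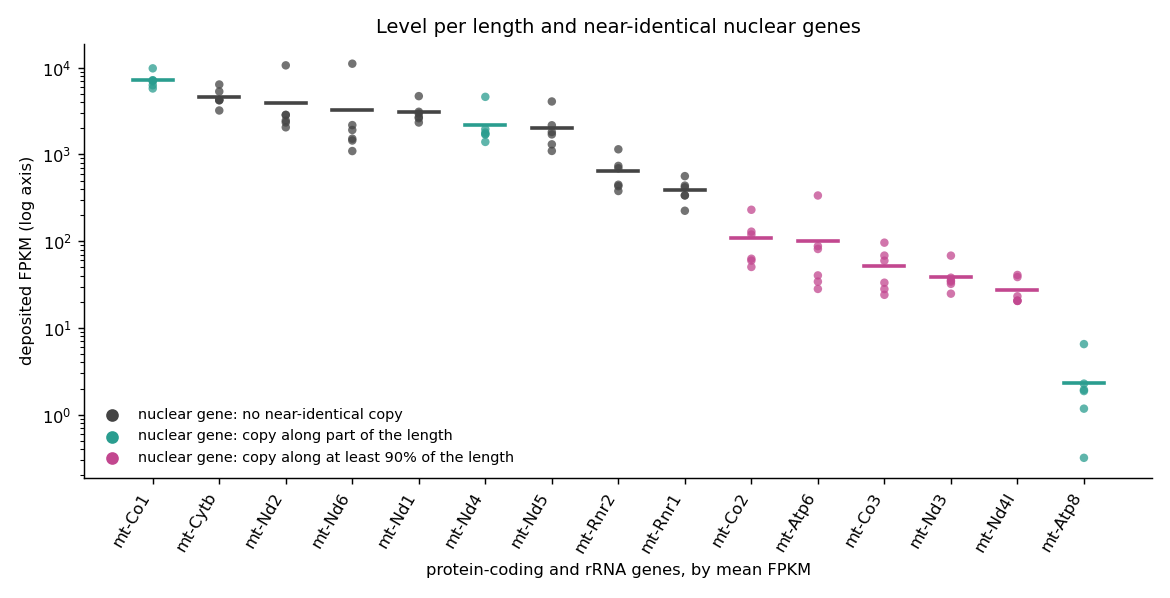
Deposited FPKM (log axis) of the 15 protein-coding and rRNA genes of the mitochondrial genome, ordered by their mean, with 1 point for each of the 6 libraries and a line at the mean; colour shows how much of the gene a nuclear gene matches in an alignment of 99% identity or more. The 5 genes matched along at least 90% of their length lie between 20.5 and 336 FPKM, below every value of mt-Co1, mt-Cytb, mt-Nd1, mt-Nd2, mt-Nd4, mt-Nd5 and mt-Nd6.

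Among the abundant members, the order of means after mt-Co1 was mt-Cytb at 4601 FPKM, mt-Nd2 at 3863, mt-Nd6 at 3209, mt-Nd1 at 3065, mt-Nd4 at 2193 and mt-Nd5 at 2026. The ranges of all neighbours in this order overlapped over the 6 libraries. mt-Co1 exceeded mt-Cytb, the only mitochondrially encoded subunit of complex III, in 6 of 6 libraries. mt-Nd1 in turn exceeded mt-Nd4 in 6 of 6. By contrast, mt-Nd2 and mt-Nd6 each exceeded mt-Nd1 in 1 of 6 libraries, 3 m replicate 2, which alone set their place above it. Without that library the order after mt-Cytb was mt-Nd1 at 2739 FPKM, mt-Nd2 at 2509, mt-Nd4 at 1710, mt-Nd6 at 1629 and mt-Nd5 at 1617. mt-Atp8 was the lowest protein-coding member with a mean of 2.35 FPKM, resting on 2 to 43 fragments per library. How fragments that fit several genes or several places were counted is not given in the sources used here, so the levels of mt-Atp8 and of the 5 members with near-complete nuclear copies are uncertain.

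The nuclear genes of the chromosome 1 run themselves received counts. For mt-Atp6, 1842, 6952 and 577 fragments were counted in the 3 m libraries (replicates 1, 2 and 3), while Gm10925 received 1494, 6811 and 903. The 24 m libraries gave 791, 681 and 1792 for mt-Atp6 and 1060, 966 and 1533 for Gm10925. The gene and its copy thus took nearly equal parts, and both peaked in 3 m replicate 2. The mitochondrial member held 39.0% to 55.2% of the pair's counts for mt-Atp6, 40.5% to 62.6% for mt-Co3, 53.6% to 62.4% for mt-Co2 and 50.9% to 66.7% for mt-Nd4l. For mt-Nd3 the share was higher, at 76.6% to 93.2%. For mt-Nd4 and mt-Co1, which match over only a part, it was at least 98.6%. These shares, with exact 95% binomial intervals that cover counting error only, differed between replicates of 1 age by more than counting error: mt-Co3 held 40.5% (39.2 to 41.8) of its pair in 3 m replicate 2 and 62.6% (60.7 to 64.5) in replicate 1.

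**Figure D2:**
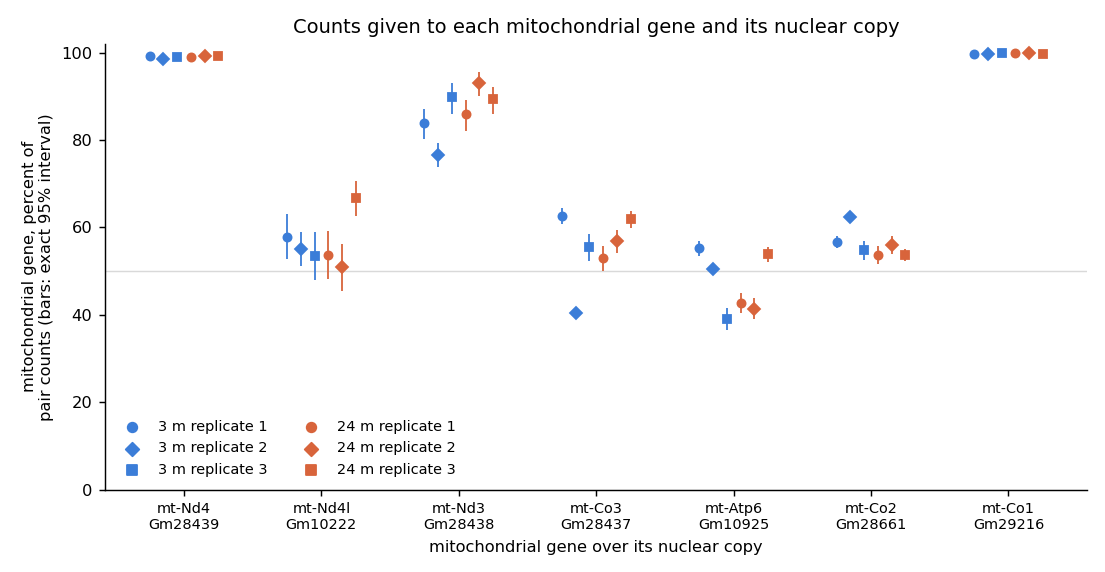
Percent of the counts of each pair, a mitochondrial gene and its nuclear copy on chromosome 1, that went to the mitochondrial gene in each of the 6 libraries (points, with exact 95% binomial intervals). mt-Nd4 and mt-Co1, matched along part of their length, lie at or above 98.6%, whereas mt-Atp6 lies between 39.0% and 55.2%.

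The share of mitochondrial genes in the libraries did not separate the ages. They held 2.73%, 5.62% and 2.29% of all counts in the 3 m libraries and 2.90%, 2.90% and 3.60% in the 24 m libraries. The 24 m values lie within the range of the 3 m values, and 3 m replicate 2 was the highest of the 6. The mean was 3.54% ± 1.81 (SD, n = 3) at 3 m and 3.13% ± 0.408 (SD, n = 3) at 24 m. Without 3 m replicate 2 the mean at 3 m was 2.51%, and the sign of the difference turned, from a difference of -0.41 percentage points to one of 0.62, with all 24 m libraries then above the remaining 3 m libraries. Over the 6 libraries an exact two-sided permutation test, which was not planned for this share, gave p = 1. Any group that holds 3 m replicate 2 has the higher mean, and the other 3 m libraries were the lowest of the rest. No other grouping gives a smaller difference, so this p cannot show that the ages are alike. In bulk samples such as these, fewer cells that are rich in mitochondria and less mitochondrial RNA per cell cannot be told apart.

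No mitochondrial gene passed the test between ages. Of the 27 members with enough counts to be tested, edgeR's quasi-likelihood test called 0 (adjusted p under 0.05, with more than 1 log2 unit between the ages), and 0 were at an unadjusted p under 0.05. Their Benjamini-Hochberg adjusted p-values ran from 0.828 to 0.991. The background was low as well, since the same test called 0% of 14899 genes, with 5.86% at an unadjusted p under 0.05. DESeq2, which called 1.79% of the genes it tested, called 0 of these members. It put 3 at an unadjusted p under 0.05, against 7.40% of all genes. Its gene set was wider than that of edgeR. Among the 14899 genes it called 236 and put 1268 at an unadjusted p under 0.05. With limma-voom 0 members were called and 1 was at an unadjusted p under 0.05, against 0% and 6.53% of all genes. The fitted log2 fold change was below 0 in 21 of the 27 and above 0 in 6, with a median of -0.43 beside 0.05 over all genes tested. Members are cut from shared precursors and are not independent of each other.

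Complex I, which takes electrons from NADH, holds 7 of the 13 mitochondrially encoded proteins. mt-Nd6, the 1 protein-coding gene on the other strand of the genome, was at 1197, 6232 and 540 CPM in the 3 m libraries and 730, 772 and 955 CPM in the 24 m libraries. The value of 3 m replicate 2 exceeded every other, and the remaining values overlapped between ages. The fitted log2 difference, 24 m minus 3 m, was -1.70 (SE 0.76, unadjusted p 0.0551 by edgeR, the smallest among members), and without 3 m replicate 2 it was -0.08 (SE 0.28). mt-Nd6 overlaps the end of mt-Nd5 by 14 bases on the opposite strand, and with no strand setting stated for the counting, reads from mt-Nd6 and from the transcript opposite to it cannot be told apart.

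mt-Nd2 showed the same shape, with 3129, 11926 and 2027 CPM at 3 m and 2477, 2376 and 2857 CPM at 24 m. Its log2 difference of -1.15 (SE 0.59) became -0.00 (SE 0.20) without 3 m replicate 2, so that the remaining libraries lay close together. mt-Nd5, which encodes a proton-pumping subunit at the far end of the membrane arm of complex I, was at 2121, 8033 and 2268 CPM at 3 m and 3016, 3241 and 3804 CPM at 24 m. Here replicates 1 and 3 at 3 m lay below all 24 m libraries and replicate 2 lay above them. The log2 difference was -0.30 (SE 0.49) over all libraries and 0.61 (SE 0.17, 95% interval 0.24 to 0.99) without 3 m replicate 2. The latter had an adjusted p of 0.178 by edgeR and 0.00694 by DESeq2, below the fold limit of the call rule in both.

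The other complex I members gave log2 differences of -0.40 (SE 0.31) for mt-Nd1, -0.62 (SE 0.46) for mt-Nd4, -0.48 (SE 0.43) for mt-Nd3 and -0.19 (SE 0.48) for mt-Nd4l. Without 3 m replicate 2 these were -0.04, 0.17, 0.05 and 0.23. mt-Nd4l and mt-Nd4 are read from 1 bicistronic mRNA and overlap by 7 bases. Per length, mt-Nd4l was at 20.5 to 40.8 FPKM and mt-Nd4 at 1393 to 4608 FPKM. The counts were 177 to 371 fragments for mt-Nd4l, of 297 bases, and 57795 to 192923 for mt-Nd4, of 1378 bases. A nuclear copy covers nearly all of mt-Nd4l and part of mt-Nd4, and its part in the gap was not tested.

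mt-Cytb was at 5087, 7909 and 3493 CPM at 3 m and 4744, 4743 and 5851 CPM at 24 m. The 24 m libraries lay inside the range at 3 m. Its log2 difference was -0.10 (SE 0.31), and it was 0.00 with library totals in place of TMM and 0.26 without 3 m replicate 2.

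In complex IV, mt-Co1 was at 10272, 11924 and 8460 CPM at 3 m and 10434, 10814 and 14605 CPM at 24 m. It was the protein-coding member least raised in 3 m replicate 2. The log2 difference was 0.23 (SE 0.24, 95% interval -0.33 to 0.78) over all libraries and 0.36 (SE 0.19) without 3 m replicate 2. mt-Co2 and mt-Co3 ranged from 32.8 to 170 and from 18.0 to 81.4 CPM at 3 m, and from 40.0 to 78.4 and from 21.4 to 45.0 CPM at 24 m, so the 24 m values of both fell inside the 3 m range. Their log2 differences were -0.89 (SE 0.55) and -0.76 (SE 0.52), and -0.23 (SE 0.40) and -0.28 (SE 0.43) without 3 m replicate 2. When each member was summed with its nuclear copy, an alternative added after the data were seen, the values were -0.75 and -1.04, and -0.18 and -0.22 without that library.

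In ATP synthase, mt-Atp6 was at 63.3, 247 and 18.2 CPM at 3 m and 26.7, 22.8 and 53.2 CPM at 24 m. Again 3 m replicate 2 was the highest library, and the 3 m values enclosed those at 24 m. The log2 difference was -1.68 (SE 0.81), and -0.24 (SE 0.46) without 3 m replicate 2. Summed with Gm10925 it was -1.59, and -0.16 without that library. It was the 1 member called under any alternative: with no filter on low counts edgeR gave -1.66 at an adjusted p of 0.0361, where 0.855% of 24224 genes were called and 8.53% were at an unadjusted p under 0.05. mt-Atp8, with 2, 12 and 14 fragments at 3 m and 11, 7 and 43 at 24 m, gave a log2 difference of 1.00 (SE 1.49), and 1.29 (SE 1.71) without 3 m replicate 2, which the depth cannot tell from none.

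**Figure D3:**
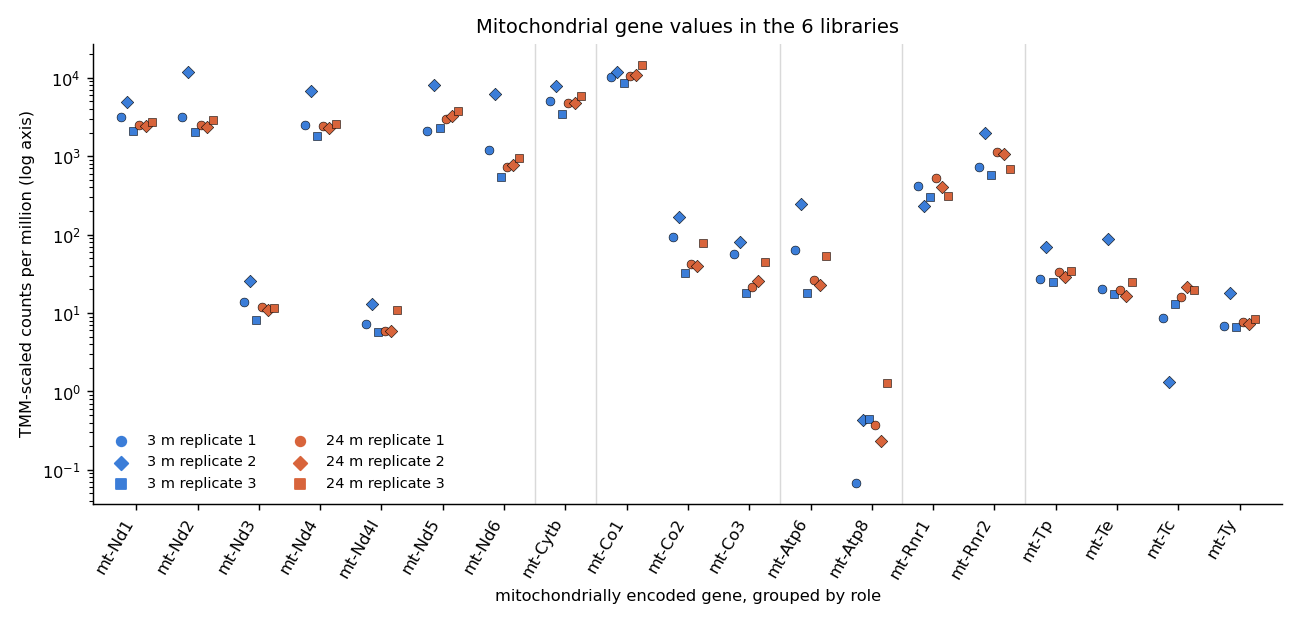
TMM-scaled CPM (log axis) of the 13 protein-coding and 2 rRNA genes and of the 4 tRNA genes with the highest mean count, with 1 point per library (blue, 3 m; orange, 24 m; circles, diamonds and squares for replicates 1, 2 and 3). The blue diamond, 3 m replicate 2, lies above the other 5 libraries for mt-Nd6 (6232 CPM) and mt-Nd2 (11926 CPM) and below them for mt-Rnr1 (231 CPM) and mt-Tc (1.32 CPM).

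The rRNAs moved apart from each other in that library. mt-Rnr1, the RNA of the small ribosomal subunit, was at 422, 231 and 306 CPM at 3 m and 522, 409 and 310 CPM at 24 m. mt-Rnr2, the RNA of the large subunit, was at 722, 1959 and 570 CPM at 3 m and 1133, 1073 and 681 CPM at 24 m. Although the genes lie in the same precursor with mt-Tv between them, 3 m replicate 2 was the lowest library for the first and the highest for the second. The count of mt-Rnr2 per count of mt-Rnr1 was 8.47 there, against 1.71 to 2.63 in the other 5 libraries. The log2 differences were 0.37 (SE 0.31) for mt-Rnr1 and -0.17 (SE 0.46) for mt-Rnr2, and 0.18 (SE 0.23) and 0.58 (SE 0.23) without 3 m replicate 2, at an adjusted p of 0.905 and 0.418 by edgeR. The library kit was an mRNA kit, which enriches RNAs with poly(A) tails, so rRNA counts measure the tailed and carried-over part of these RNAs.

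The tRNA genes are 59 to 75 bases long, shorter than a usual sequenced fragment, and their counts are no measure of mature tRNA. In all, tRNA genes held 0.00849% to 0.0206% of the counts of a library. Of the 19, 12 had enough counts to be tested, and the other 7 (mt-Tv, mt-Ti, mt-Tq, mt-Tm, mt-Tk, mt-Th and mt-Tt) had at most 53 fragments in any library. Their adjusted p-values by edgeR ran from 0.828 to 0.991, and 9 of the 12 were fitted below 0 and 3 above. mt-Te and mt-Tc had the smallest unadjusted p and are shown because 3 m replicate 2 departed in opposite directions, although both lie on the same strand as mt-Nd6.
mt-Te: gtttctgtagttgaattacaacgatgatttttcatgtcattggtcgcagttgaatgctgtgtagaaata
mt-Tc: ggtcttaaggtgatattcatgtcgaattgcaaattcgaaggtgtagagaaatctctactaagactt

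mt-Te, the tRNA for glutamate, lies between mt-Nd6 and mt-Cytb. It was at 20.2, 87.1 and 17.4 CPM at 3 m and 19.4, 16.4 and 25.0 CPM at 24 m, so that 3 m replicate 2 was 4.63 times the mean of the other 3 m libraries, beside 7.17 times for its neighbour mt-Nd6. Its log2 difference was -1.03 (SE 0.59), and 0.11 (SE 0.25) without that library. mt-Tc, the tRNA for cysteine, was at 8.77, 1.32 and 13.1 CPM at 3 m and 16.1, 21.5 and 19.6 CPM at 24 m. All 24 m libraries lay above all 3 m libraries, and mt-Tc was the 1 member of 27 whose ages did not overlap, beside 15.1% of all genes tested in either direction and 9.74% in this one. Its log2 difference was 1.30 (SE 0.68, unadjusted p 0.0880 by edgeR), and 0.81 (SE 0.27, adjusted p 0.320) without 3 m replicate 2. mt-Tp and mt-Ty, the tRNAs for proline and tyrosine, gave -0.34 (SE 0.41) and -0.43 (SE 0.48), and 0.31 and 0.22 without it.

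The second 3 m library thus carried most of the spread. It was the highest of the 6 libraries in 19 of the 27 members tested, where the same held for 30.8% of all genes tested, and the lowest in 4, where the same held for 40.8%. It held at least 2 times the mean of the other 3 m libraries in 17 of 27, against 16.7% of all genes tested. The factor was uneven between genes. Among protein-coding members it ran from 1.27 for mt-Co1, 1.84 for both mt-Nd1 and mt-Cytb and 3.17 for mt-Nd4 to 4.63 for mt-Nd2, 6.06 for mt-Atp6 and 7.17 for mt-Nd6. The low number of genes detected in this library moved with these values, and its part in them was not tested.

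The make-up of the mitochondrial counts showed the same library. As a share of protein-coding mitochondrial counts, mt-Co1 held 37.1%, 20.5% and 40.6% at 3 m and 39.5%, 40.3% and 43.5% at 24 m. Apart from 3 m replicate 2, the libraries of both ages overlapped between 37.1% and 43.5%. mt-Nd2 held 11.3%, 20.5% and 9.74% at 3 m and 9.38%, 8.87% and 8.51% at 24 m, while mt-Nd6 held 4.33%, 10.7% and 2.59% at 3 m and 2.76%, 2.88% and 2.84% at 24 m. For mt-Nd6 the first replicate at 3 m was also above the remaining 4 libraries, which lay between 2.59% and 2.88%. mt-Nd5 held 7.66%, 13.8% and 10.9% at 3 m and 11.4%, 12.1% and 11.3% at 24 m. All complex I members together held 42.3% to 65.1% at 3 m and 38.6% to 42.2% at 24 m, so that all 3 m libraries lay above all 24 m libraries. Without 3 m replicate 2 the 3 m values were 42.3% and 43.7%, which still did not overlap those at 24 m, although the nearest libraries of the ages were 42.3% and 42.2%. An exact two-sided permutation test over the 6 libraries, likewise not planned, gave p = 0.1, the smallest that 3 libraries against 3 allow. Full separation of the ages fixes this p, so the test adds nothing to the values themselves. The other shares in this make-up were not tested in this way. rRNA counts per 100 protein-coding counts were 4.13, 3.76 and 4.21 at 3 m and 6.27, 5.53 and 2.95 at 24 m, so that the 24 m libraries lay on both sides of those at 3 m.

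**Figure D4:**
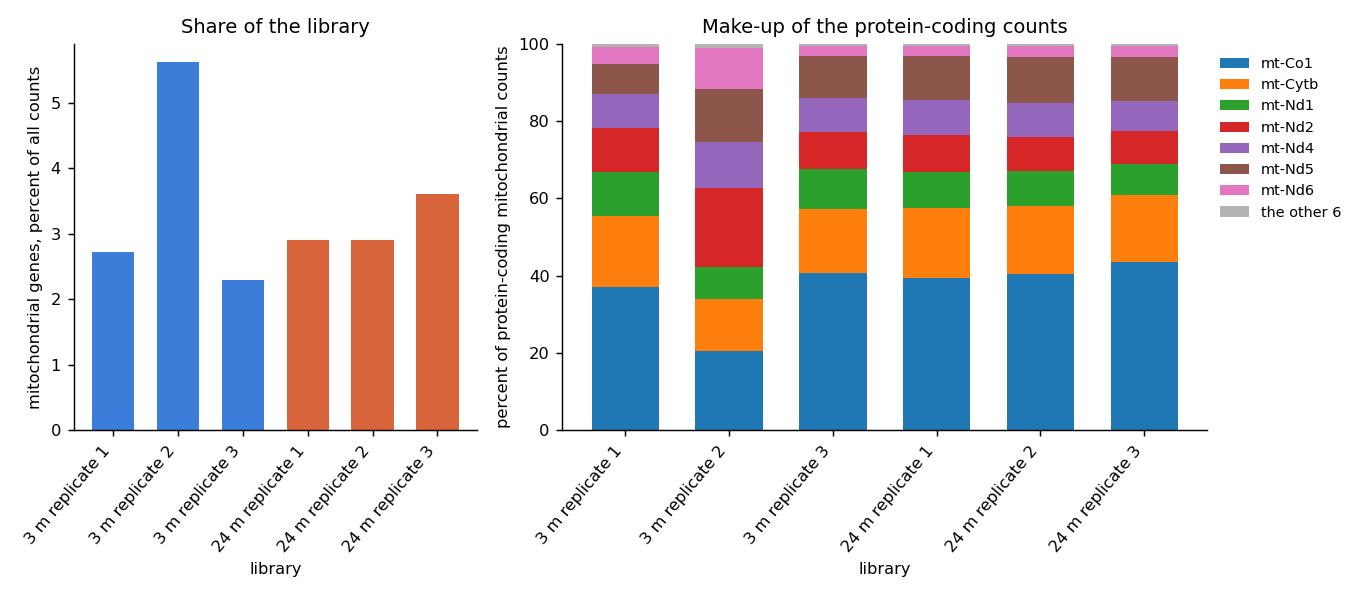
Left, mitochondrial genes as a percent of all counts in each library (blue, 3 m; orange, 24 m); right, the make-up of the counts of the 13 protein-coding mitochondrial genes in each library, in percent. 3 m replicate 2 has the highest share, 5.62%, and the lowest share of mt-Co1, 20.5%, beside 37.1% to 43.5% in the other 5 libraries.

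Leaving out single libraries moved the members in different directions. Without 3 m replicate 2 the median log2 difference of members was 0.18, beside 0.03 over all genes tested, and 17 of the 27 tested over all libraries were above 0. Ages then did not overlap in 11 members, 9 higher and 2 lower at 24 m. The same held for 26.3% of all genes tested, 14.9% higher and 11.4% lower. Of the 11 members, 7 higher and 2 lower were tRNA genes. The 2 lower were mt-Ta and mt-Tr, with 0 to 146 and 0 to 21 fragments per library. Ages did not overlap in 2 of the 13 protein-coding members, mt-Co1 and mt-Nd5, and in 0 of the 2 rRNAs. By edgeR 0 members were called and 4 were at an unadjusted p under 0.05 (mt-Nd5, mt-Rnr2, mt-Tc and mt-Ta), against 0.524% and 10.4% of all genes. DESeq2 likewise called 0 and put 4 there, against 2.76% and 8.92% of its wider gene set. Without 3 m replicate 3 the median was -0.70, 7 of the 28 members tested in that fit were at an unadjusted p under 0.05 (6 of them lower at 24 m), against 13.3% of all genes. Ages then did not overlap in 9 of the 27 tested over all libraries, 1 higher and 8 lower at 24 m, against 34.6% of all genes, 21.5% higher and 13.1% lower, so that this split was the reverse of that without 3 m replicate 2. Without 3 m replicate 1, 1 member (mt-Nd6) was at an unadjusted p under 0.05 and ages did not overlap in 3, all higher at 24 m, against 8.74% of all genes for the first count and 28.4% for the second, 17.8% in that direction.

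**Figure D5:**
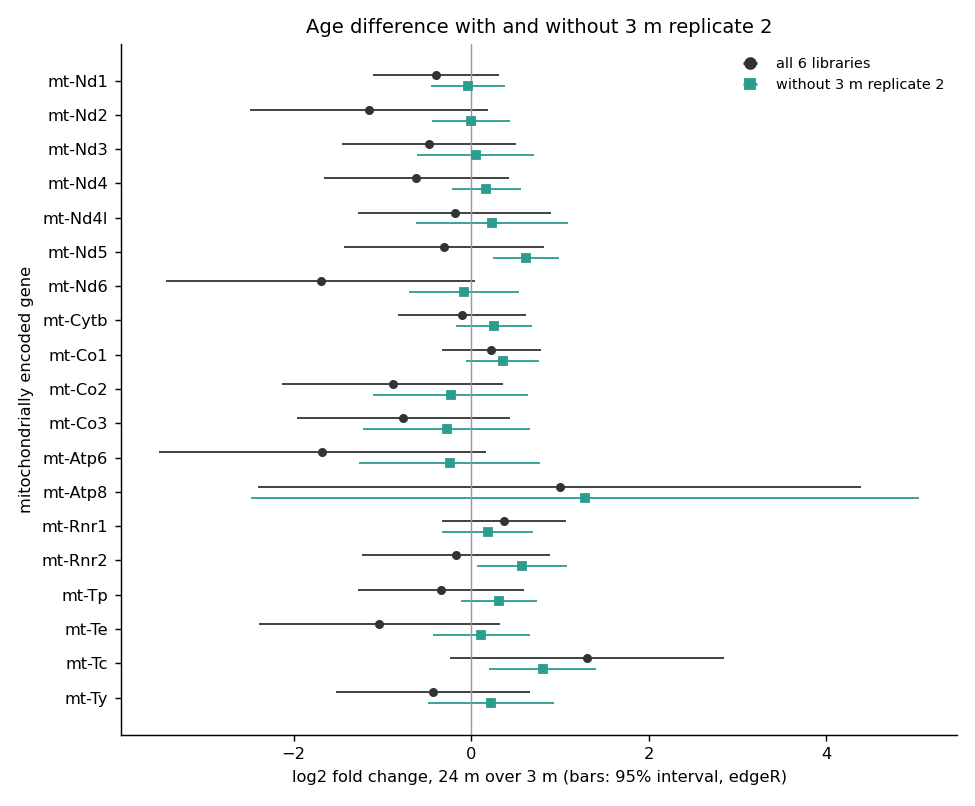
Fitted log2 fold change of 24 m over 3 m, with 95% intervals from edgeR, for the 15 protein-coding and rRNA genes and the 4 tRNA genes with the highest mean count, over all 6 libraries (black circles) and without 3 m replicate 2 (green squares). All intervals over 6 libraries span 0; without 3 m replicate 2 those of mt-Nd5 (0.24 to 0.99), mt-Rnr2 (0.07 to 1.08) and mt-Tc (0.20 to 1.41) do not.

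The nuclear partners of these genes were examined in the same fit. Complex I is built from 7 mitochondrial and many nuclear subunits, of which 37 were tested. By edgeR 0 were called and 3 were at an unadjusted p under 0.05, or 4 by edgeR and 4 by DESeq2 without 3 m replicate 2, against 5.86%, 10.4% and 8.92% of all genes. Of the 37, 26 were fitted above 0 and 11 below, with a median of 0.10 that was -0.08 without 3 m replicate 2. The 3 were Ndufb2, Ndufb5 and Ndufc1, accessory subunits of the membrane arm, with log2 differences of -1.85 (SE 0.62), -1.04 (SE 0.36) and -1.25 (SE 0.48) and adjusted p-values of 0.769, 0.801 and 0.828. The differences without 3 m replicate 2 were -0.88 (SE 0.38), -0.63 (SE 0.24) and -0.57 (SE 0.30). For Ndufb2 the values were 15.5, 49.0 and 9.74 CPM at 3 m and 8.40, 4.05 and 8.08 CPM at 24 m, so that 3 m replicate 2 was again the highest. All 24 m libraries lay below all 3 m libraries for Ndufb2 and Ndufb5, with and without that library, while the ages overlapped for Ndufc1. Of the 37 subunits, 0 were higher and 2 lower at 24 m without overlap, against 15.1% of all genes tested in either direction. Without 3 m replicate 2 these counts were 1 and 5, against 26.3%. In 3 m replicate 2 most subunits behaved otherwise. In 27 of the 37, in 7 of 9 of complex III, in 11 of 16 of complex IV and in 11 of 18 of complex V, 3 m replicate 2 was the lowest of the 6 libraries, against a lower share of 40.8% among all genes tested. Summed nuclear complex I subunits were at 1655, 1135 and 1304 CPM at 3 m and 1276, 1339 and 1396 CPM at 24 m. The library with the most mitochondrial complex I counts therefore had the fewest nuclear ones, and the ages overlapped.

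In complex III, Uqcr11 was at 23.0, 3.24 and 42.4 CPM at 3 m and 34.5, 52.3 and 43.9 CPM at 24 m. As in most subunits, 3 m replicate 2 was the lowest. Uqcr10 and Uqcrb gave log2 differences of 0.51 (SE 0.36) and 0.47 (SE 0.36), which were 0.29 and 0.22 without it, and Uqcr11 gave 0.93 (SE 0.71) and 0.41. The 4 subunits of complex II, the 1 complex of the chain with no mitochondrially encoded subunit, had a median log2 difference of -0.22, and -0.30 without 3 m replicate 2. Sdhb, its iron-sulphur subunit, gave -0.56 (SE 0.29), and -0.41 without that library, and its membrane anchors Sdhc and Sdhd gave -0.23 (SE 0.23) and -0.21 (SE 0.27), and -0.24 and -0.36 without it. Of the 9 complex III, 16 complex IV and 18 complex V subunits, 0 were at an unadjusted p under 0.05 by edgeR or DESeq2. With limma-voom 1 of complex IV was there. The shares over all genes were 5.86%, 7.40% and 6.53% for the 3 tools. Without 3 m replicate 2 edgeR and DESeq2 each put 2 of complex IV there and 0 of complexes III and V. The shares over all genes were then 10.4% and 8.92%, and the smallest adjusted p of complex IV was 0.128 by edgeR. Fitted below 0 were then 4 of the 9, 13 of the 16 and 13 of the 18 subunits, beside 7108 of 14899 genes. The median log2 differences of complexes III, IV and V over all libraries were 0.12, 0.06 and 0.05. Without 3 m replicate 2 they were 0.01, -0.10 and -0.12. Cox7a2l, Cox4i1 and Cox8a of complex IV, at -0.45 (SE 0.36), 0.29 (SE 0.34) and 0.36 (SE 0.46), became -0.00, -0.00 and -0.04 without 3 m replicate 2. Atp5mpl, Atp5g3 and Atp5md of complex V gave -0.90 (SE 0.47), -0.34 (SE 0.23) and 0.44 (SE 0.40), and -0.17, -0.20 and 0.11 without it. For Atp5g3 all 24 m libraries lay below all 3 m libraries, with and without that library. Ages did not overlap in 0, 0 and 2 subunits of complexes III, IV and V, against 15.1% of all genes tested. Without 3 m replicate 2 these were 2, 2 and 4, against 26.3%, and all were lower at 24 m.

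Factors that maintain, transcribe and process mitochondrial nucleic acid were also without a call by edgeR, DESeq2 or voom. Among 17 genes of transcription and DNA maintenance, 22 of RNA processing and decay, 17 of rRNA and tRNA modification and 22 aminoacyl-tRNA synthetases, edgeR put 0, 0, 0 and 1 at an unadjusted p under 0.05. DESeq2 put 0, 1, 0 and 1 there and limma-voom 0, 0, 1 and 1. The shares over all genes were 5.86%, 7.40% and 6.53%. Without 3 m replicate 2 edgeR put 0, 2, 0 and 2 there and DESeq2 0, 1, 0 and 1, against 10.4% and 8.92% of all genes. Over all libraries the median log2 differences were 0.03, -0.03, -0.05 and -0.08, and without 3 m replicate 2 they were -0.06, -0.02, 0.08 and -0.13. Lrpprc, which stabilises mitochondrial mRNAs, was at 45.8, 92.7 and 34.5 CPM at 3 m and 23.8, 35.0 and 34.7 CPM at 24 m, with a log2 difference of -0.89 (SE 0.39, adjusted p 0.828 by edgeR) that was -0.36 without 3 m replicate 2. Grsf1, an RNA-binding protein of the mitochondrial RNA granules, gave -0.50 (SE 0.25), and -0.49 without it (unadjusted p 0.0406, adjusted p 0.456 by edgeR). Ptcd1, a pentatricopeptide repeat protein of the same list, gave 0.81 (SE 0.49), and 0.45 without it. Twnk, the mitochondrial DNA helicase, and Polg2, the accessory subunit of the mitochondrial DNA polymerase, gave -0.54 (SE 0.36) and 0.52 (SE 0.34), and -0.35 and 0.33 without it. Mterf2, of the mitochondrial termination factor family, gave -2.02 (SE 1.51), and -2.36 without it, on 0 to 110 fragments per library. Among the modifying enzymes, Trnt1, which adds the CCA end of tRNAs, and the tRNA methyltransferases Trmt5 and Trmt61b gave -0.72 (SE 0.34), -1.03 (SE 0.66) and 1.31 (SE 0.88), which became -0.33, -0.39 and 0.90. The ages did not overlap for Polg2 and Trmt61b, higher at 24 m, or for Trnt1, lower at 24 m, with and without that library. By list, in the order above, the ages did not overlap in 1, 0, 3 and 1 genes higher at 24 m. Those lower at 24 m were 1, 1, 1 and 1. Without 3 m replicate 2 these counts were 2, 0, 3 and 1 higher and 3, 3, 2 and 5 lower. The shares over all genes tested were 15.1% in either direction with all libraries and 26.3% without 3 m replicate 2. Gatc, a subunit of the enzyme that completes mitochondrial glutaminyl-tRNA, was at 22.1, 21.6 and 23.2 CPM at 3 m and 14.4, 11.9 and 16.7 CPM at 24 m. All its 24 m libraries lay below all 3 m libraries, with a log2 difference of -0.64 (SE 0.28, unadjusted p 0.0496, adjusted p 0.828 by edgeR) and -0.66 without 3 m replicate 2, so this difference did not rest on that library. Hars2 and Vars2, the mitochondrial synthetases for histidine and valine, gave 0.54 (SE 0.30) and 0.46 (SE 0.37), and 0.35 and 0.12 without it, and for Hars2 all 24 m libraries lay above all 3 m libraries. Of 18 other nuclear mitochondrial proteins 9 were fitted above 0 and 9 below, with a median of -0.08 that was also -0.08 without 3 m replicate 2. Those with the smallest p, Vdac3 of the outer membrane channel, the phosphate carrier Slc25a3 and Immt of the cristae junctions gave -0.64 (SE 0.30), -0.48 (SE 0.26) and -0.44 (SE 0.24). These were -0.33, -0.28 and -0.31 without 3 m replicate 2, and over all libraries 0 of the list were at an unadjusted p under 0.05.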

How the data were processed

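RNA of 6 sorted AT2 libraries, 3 of 3 m and 3 of 24 m mice, had been sequenced after preparation with an mRNA kit. The deposited table held raw fragment counts per gene and FPKM for each library, made by the authors. The submitters' processing notes named GRCm39 as the build and HISAT2, featureCounts and DESeq2 as tools without versions, while the annotation release, the strand setting and the handling of fragments that map to several places are not given in the sources used here. Count divided by FPKM gave gene lengths equal to the annotation for all 34 members. Depth was 28827930 to 32394985 counts, and the binomial intervals of shares cover counting error only, while those of log2 differences come from the edgeR fit and include the spread between replicates.

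Counts were tested for all genes in edgeR 4.0.16 (R 4.3.3) with filterByExpr, TMM scaling and the quasi-likelihood test with age as the only term, and 14899 of 24224 genes passed the filter. The call rule was a p under 0.05 after Benjamini-Hochberg adjustment over all genes tested, with more than 1 log2 unit between the ages. DESeq2 1.42.0 and limma-voom (limma 3.58.1), other scalings and filters, and each library left out in turn were alternatives, as was the replicate number as a block. The tests were tried on simulated counts with known changes first. CPM are TMM-scaled. Lists were described by counts and medians, with no set test. Members were compared with the GENCODE vM21 transcripts (GRCm38, read by gene name and neighbour order only) by BLAST+ 2.17.0, and alignments of at least 30 bases with 99% identity over their length were taken as near-identical. All protein-coding and rRNA members were named, of the tRNAs the 4 with the highest mean count and the 2 with the smallest p, and of each nuclear list up to 3 with the smallest p and a mean CPM of at least 1. The genes described here and the lists were chosen with earlier results of these data known.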

Additional observations from a re-analysis of the deposited data

How the results depend on the processing

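No member passed the call rule under any alternative other than 1, the fit with no filter on low counts, which called 1 member (mt-Atp6, -1.66 on the log2 scale). Members at an unadjusted p under 0.05 were 0 in the edgeR fit with all libraries, 3 with DESeq2, 1 with limma-voom, 7 with no filter, 4 with DESeq2 without 3 m replicate 2 and between 0 and 7 when 1 library was left out. Members whose ages did not overlap were 1, and between 1 and 11 with 1 library left out. The median log2 difference of members was -0.43, between -0.70 and 0.18 with 1 library left out and 0.22 with DESeq2 without 3 m replicate 2. With 1 library left out the log2 difference ranged from -0.47 to 0.58 for mt-Rnr2, -0.048 to 1.39 for mt-Atp8, -0.78 to 0.048 for mt-Nd3, -0.55 to 0.23 for mt-Nd4l, -0.94 to 0.17 for mt-Nd4, -0.61 to 0.61 for mt-Nd5, -0.34 to 0.26 for mt-Cytb, -0.59 to 0.31 for mt-Tp, -1.39 to 0.11 for mt-Te and -0.66 to 0.22 for mt-Ty. Apart from mt-Atp8, which turned sign without 24 m replicate 3, and mt-Rnr2, which turned there too, it was the fit without 3 m replicate 2 that gave the value above 0, and the cause was not tested. DESeq2 without that library gave 0.57 for mt-Rnr2, 0.042 for mt-Nd3, 0.22 for mt-Nd4l, 0.16 for mt-Nd4, 0.60 for mt-Nd5, 0.25 for mt-Cytb, 0.30 for mt-Tp, 0.10 for mt-Te and 0.21 for mt-Ty. mt-Rnr2 also turned with limma-voom (0.014) and mt-Cytb with library totals (0.0010). The median over all genes was 0.05 on the log2 scale, 0.13 with library totals and 0.19 with no filter.

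Replicate numbers were shared between the ages, but same-numbered libraries did not deviate together (r of deviations 0.01, -0.04 and -0.08). With 3 libraries per age, these values cannot show whether same-numbered libraries shared a batch. With a replicate block 0 members were called, 0 were at an unadjusted p under 0.05, the median was -0.16, and mt-Rnr2 (0.018) and mt-Nd5 (0.0023) turned sign.

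Depth limits mt-Atp8 and the 7 tRNA genes that were not tested, whose counts were at most 53. It also limits tested tRNA genes such as mt-Tr (0 to 21 fragments per library), mt-Ta (0 to 146) and mt-Ts2 (0 to 223). Among the named nuclear genes it limits Mterf2 (0 to 110) and Trmt61b (11 to 122). Where a nuclear copy is near-identical, how fragments were shared between the copies also limits the level. Summing a member with its copy, an alternative added after the data were seen, left 0 members called. Done without 3 m replicate 2 it called 0, put 4 at an unadjusted p under 0.05 and gave a median of 0.17. Named members that turned from below 0 with all libraries to above 0 were mt-Nd4l (0.17), mt-Nd4 (0.17), mt-Rnr2 (0.58), mt-Nd5 (0.61), mt-Cytb (0.26), mt-Tp (0.31), mt-Te (0.11) and mt-Ty (0.22).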
